A study of Mus musculus with 64 samples.

Results

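Insertions of mobile DNA in 9 genes that write histone marks were examined in a transposon screen for diffuse large B-cell lymphoma (DLBCL) in the mouse. The genes were Kmt2a, Kmt2c, Kmt2d, Kmt2e, Setd2, Nsd1, Ezh2, Crebbp and Ep300, chosen as lymphoma-linked histone methyl and acetyl transferases, and every insertion that the deposited gene column assigned to one of them was taken. They held 411 of the 299625 insertions counted. The 64 samples came from as many mice, with tumours from 30 PB and 11 SB animals and tail tissue from 12 PB and 11 SB animals. PB mice (genotype IMPB) carried ITP transposon copies and the PiggyBac transposase, which inserts the transposon at TTAA. SB mice (genotype IMSB) carried ITP transposons and the Sleeping Beauty transposase, which inserts it at TA. Both transposases were knocked in at Rosa26 and were therefore active in all tissues, tails included. The paper uses tails as unselected controls. Tails differ from tumours in tissue and came from other mice, so effects of tumour and of tissue cannot be told apart. The SB mice came from crosses of Rosa26 SB/+ mice with one of the transposon lines ITP1-C and ITP2-M, all homozygous for Blm m3, an allele of the Blm helicase gene, and offspring were double or triple transgenic. PB ITP mice came from an earlier cohort. All mice were on a mixed C57BL/6, 129Sv and FVB background, and ages were not given in the sources used here. Tumours were taken from spleen, lymph nodes, mesenteric or cervical masses, small intestine and thymus, and the share of tumour cells in each was not measured.

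DNA is wound around histones, and chemical marks on histone tails set how open a gene is. Enzymes of the Kmt2 family methylate lysine 4 of histone H3 (H3K4) at promoters and enhancers, and Kmt2c and Kmt2d act mainly at enhancers. Setd2 adds the last methyl group to H3K36 along transcribed genes, and Nsd1 adds the methyl groups before it. Ezh2 is the catalytic subunit of Polycomb repressive complex 2, which methylates H3K27 at silenced genes and is highly active in germinal centre B cells. Crebbp and Ep300 are related acetyltransferases that mark active enhancers. In human B-cell lymphoma, KMT2D, CREBBP, EP300 and EZH2 are among the genes that are often mutated. A transposon in a gene can cut its transcript short or drive transcription from within the transposon, and an insertion shows only that the cell or its ancestors carried it.

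The insertion sites below carry the recurrent or the most covered insertions in these genes and are shown first because the results refer back to them. Each is 10 bases on either side of the target motif, which is in capitals, on the plus strand of GRCm38.
Kmt2a exon 9, chr9:44841564-44841567, PB: gacttttaccTTAAagtccactct
Setd2 intron 1, chr9:110535387-110535390, PB: cactcactctTTAAgtagttgcat
Kmt2c intron 2, chr5:25419335-25419338, PB: atgcatgtctTTAAgccagtctgc
Crebbp intron 19, chr16:4103335-4103338, PB: ttgtaaatttTTAAataaaccata
Ezh2 intron 1, chr6:47585733-47585736, PB: tctcaattgtTTAAaactgttggt
Kmt2c intron 6, chr5:25398387-25398388, SB: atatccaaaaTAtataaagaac
Kmt2c intron 1, chr5:25457882-25457883, SB: gtctaccaggTAagtataccaa
Crebbp intron 8, chr16:4126162-4126163, SB: gggagctctaTAactagtttca
Nsd1 intron 3, chr13:55236096-55236097, SB: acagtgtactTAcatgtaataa
The Kmt2a site was the only coding position that several tumours shared.

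Insertions were detected by sequencing the junctions of transposon and genome (QiSeq), and each position of a sample entered as 1 insertion however many reads it had. PB tumours held between 757 and 10800 insertions (median 4283.5), PB tails between 2035 and 7362 (median 3547.5), SB tumours between 760 and 8786 (median 3836) and SB tails between 2537 and 7148 (median 4361). PB tumour 3, a spleen, had 5721832 reads, against a PB tumour median of 136578.5. Sample names were written in a joined or a separated form, a difference the labels do not explain, with 22 joined names among PB tumours, 5 among PB tails, 11 among SB tumours and 7 among SB tails. PB lines named the Kmt2 genes by their older symbols Mll1, Mll2, Mll3 and Mll5, whereas SB lines used the current ones. A match by current symbol alone would have found 290 of the 411 insertions and none in the Kmt2 genes of PB samples, and the 121 under an older symbol were added after their position was checked.

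The 9 genes together received 256 insertions in PB tumours, 34 in PB tails, 69 in SB tumours and 52 in SB tails. A PB tumour held between 0 and 27 of them (median 8), a PB tail between 0 and 7 (median 3), an SB tumour between 2 and 20 (median 5) and an SB tail between 2 and 9 (median 5). All 4 ranges overlapped. The highest values were those of PB tumour 7, a lymph node, and SB tumour 11, a mesenteric mass. In PB tumours the number rose with the total number of insertions of the tumour (Pearson r = 0.74, permutation p = 1e-05, the smallest that the resamples can give; Spearman rho = 0.70, permutation p = 7.0e-05; n = 30, adjusted p = 4.0e-05 and 0.00028 over 4 groups), and r was 0.72 without the 2 tumours farthest from the median. Pearson r was 0.77 in PB tails, 0.84 in SB tumours and 0.34 in SB tails, with permutation p of 0.0041, 0.0015 and 0.30, and rho was 0.77, 0.62 and 0.40, with permutation p of 0.0045, 0.044 and 0.22. Without the 2 farthest samples r was 0.87, 0.63 and 0.48. Values were therefore also expressed per 10000 insertions of the sample. The 2 PB tumours without an insertion in any of the 9 genes were those with 757 and 1542 insertions in all.

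**Figure D1:**
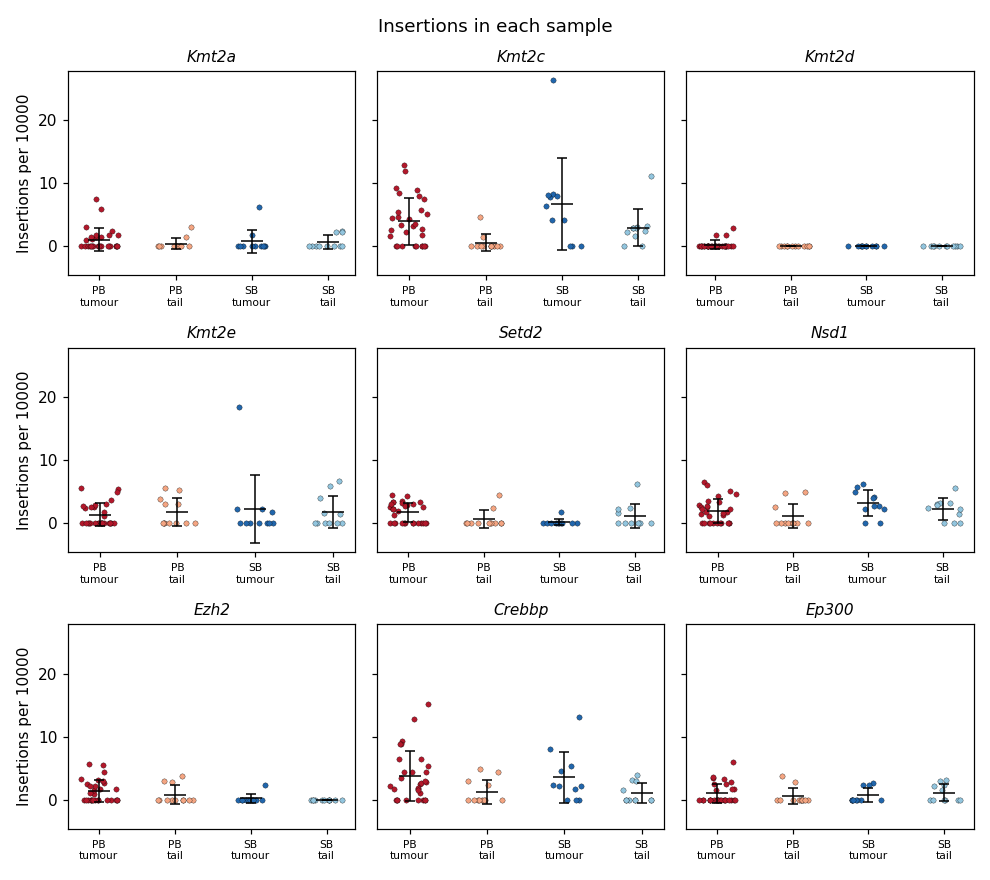
Insertions in each of the 9 genes per 10000 insertions of the sample (y axis) in every sample of the 4 groups (x axis). Points are samples, horizontal marks are means and bars are 1 SD. Kmt2c and Crebbp reach 12.8 and 15.2 in PB tumours, against at most 4.65 and 4.91 in PB tails, and in each gene some tumours are at 0.

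Among the H3K4 methyltransferases, Kmt2c was the gene with the most insertions. It lies on chr5:25271795-25498855, minus strand, and spans 227.061 kb with 59 exons. Kmt2c held 0 to 8 insertions in PB tumours (median 2) and 0 to 2 in PB tails (median 0). SB tumours held 0 to 7 (median 2) and SB tails 0 to 5 (median 1). Of the PB samples, 21 of 30 tumours and 2 of 12 tails had at least 1 insertion, and 12 tumours had 3 or more. Per 10000 insertions, PB tumours had 3.88 ± 3.74 (SD, n = 30). The level of PB tails was 0.51 ± 1.37 (SD, n = 12). The ranges overlapped, since 9 PB tumours had none.

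Kmt2c was the only one of the 8 members tested that was called in PB tumours against PB tails. Tumour and tissue differ together in this comparison, and the part of each was not tested. Its log2 difference was 2.68 ± 0.71 (SE; edgeR quasi-likelihood test, Benjamini-Hochberg adjusted p = 0.0085). The only tested member with a negative difference was Kmt2e. Over all genes, 149 of 3307 (4.51%) were called, 72 of them (2.18%) higher in tumours. Among joined names alone Kmt2c had 50 insertions in 22 tumours and 0 in 5 tails (edgeR adjusted p = 0.032). Among separated names the counts were 13 in 8 tumours and 3 in 7 tails, with a log2 difference of 1.84 (edgeR adjusted p = 0.32), and with the name form as a block the adjusted p was 0.013. The call was lost when genes with a single insertion were tested too (edgeR adjusted p = 0.075) and when samples were counted as hit or not (exact Fisher test, p = 0.0024, adjusted p = 0.19). On simulated data with a log2 change of 2, 3 of 54 PB genes with at least 30 insertions were found, so a PB gene that was not called may still differ. In the SB simulation 34 of 38 such genes were found.

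In SB mice Kmt2c was hit in 8 of 11 tumours and 9 of 11 tails, with 26 and 15 insertions. The level was 6.63 ± 7.35 per 10000 insertions in tumours and 2.88 ± 2.95 in tails (SD, n = 11 each). The log2 difference was 0.98 ± 0.55 (SE; edgeR adjusted p = 0.58). Whether the tumour effect differed between the systems was tested as an interaction, which gave a log2 difference of 1.70 ± 0.99 (SE; edgeR p = 0.087, adjusted p = 0.57).

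Kmt2a, on chr9:44803355-44881352, was hit in 12 of 30 PB tumours and 2 of 12 PB tails, with 16 and 2 insertions. The gene, at which chromosomal breaks occur in human leukaemia, held 0 to 3 insertions per PB tumour (median 0) and 0 or 1 per PB tail. In SB mice 2 of 11 tumours and 3 of 11 tails were hit. The difference in PB was 1.30 ± 0.94 on the log2 scale (SE; edgeR adjusted p = 0.50). Of the 16 insertions, 4 lay in coding exons, and 3 of these were at the exon 9 site shown above, in PB tumours 15, 18 and 27, all antisense to the gene, with 7, 102 and 17 reads.

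Kmt2e, on chr5:23433036-23504235, encodes a Kmt2 protein with little known methyltransferase activity. It was hit in 12 of 30 PB tumours, 5 of 12 PB tails, 4 of 11 SB tumours and 5 of 11 SB tails. PB tumours held 0 to 6 insertions (median 0) and PB tails 0 to 2 (median 0). Per 10000 insertions the tumours had 1.26 ± 1.80 (SD, n = 30) and the tails 1.69 ± 2.21 (SD, n = 12), a log2 difference of -0.25 ± 0.60 (SE; edgeR adjusted p = 0.85). In SB the difference was -0.19 ± 0.82 (SE; edgeR adjusted p = 0.94). Its highest SB value, 18.3 per 10000, came from 3 insertions in SB tumour 9, which had few insertions in all.

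Kmt2d, on chr15:98831669-98874077, is the shortest of the 9 genes at 42.409 kb and has 114 TTAA sites, against 410 to 1861 in the others. It held 3 insertions, each in a different PB tumour, and none in PB tails, SB tumours or SB tails. A count of 0 allows a share of hit samples of up to 26.5% for 12 PB tails and up to 28.5% for 11 SB samples (upper 95% Clopper-Pearson limits). Counting the whole RefSeq gene gave 4 insertions in PB tumours, where 1.38 were expected. Kmt2d had too few insertions for a comparison of tumours with tails.

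The H3K36 methyltransferases Nsd1 and Setd2 lie on chr13:55209782-55318325 and chr9:110532500-110618633. Nsd1 held 0 to 5 insertions in PB tumours (median 1), 0 to 1 in PB tails (median 0), 0 to 5 in SB tumours (median 1) and 0 to 2 in SB tails (median 1). It was hit in 19 of 30 PB tumours and 3 of 12 PB tails, but in 9 of 11 SB tumours and 8 of 11 SB tails. The log2 difference was 1.55 ± 0.79 in PB (SE; edgeR p = 0.048, adjusted p = 0.25) and 0.63 ± 0.65 in SB (SE; edgeR adjusted p = 0.82). Setd2 held 0 to 3 insertions in PB tumours (median 1) and 0 to 3 in PB tails (median 0), and was hit in 17 of 30 and 2 of 12 samples. In SB it had 1 insertion in 11 tumours and 5 in 4 of 11 tails, too few for the SB comparison. The interaction of system and tissue for Setd2 was 3.08 ± 1.51 on the log2 scale (SE; edgeR p = 0.048, adjusted p = 0.53), and 0 of 4295 genes (0%) were called in it by edgeR, with 397 below an unadjusted p of 0.05, and none by DESeq2. The same difference was 0.91 ± 1.06 for Nsd1, -0.01 ± 1.06 for Crebbp and -0.08 ± 0.995 for Kmt2e (SE).

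Ezh2, on chr6:47530274-47595270, was hit in 15 of 30 PB tumours and 3 of 12 PB tails, with 22 and 4 insertions. A PB tumour held 0 to 3 (median 0.5) and a PB tail 0 to 2 (median 0). The log2 difference was 0.76 ± 0.75 (SE; edgeR adjusted p = 0.63). In SB mice 1 tumour held 2 insertions and no tail held any, and 0 of 11 tails allows a share of up to 28.5% by the same limit. The insertion of rank 5 by reads in PB tumour 18, a spleen, was the intron 1 site of Ezh2 shown above, which lies upstream of the coding sequence.

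The acetyltransferases differed in number of insertions. Crebbp, on chr16:4081334-4213957, held 0 to 8 insertions in PB tumours (median 1), 0 to 3 in PB tails (median 0), 0 to 4 in SB tumours (median 1) and 0 to 2 in SB tails (median 0). It was hit in 22 of 30 PB tumours, 4 of 12 PB tails, 8 of 11 SB tumours and 4 of 11 SB tails. Per 10000 insertions the level was 3.68 ± 3.97 (SD, n = 30) against 1.21 ± 1.90 (SD, n = 12) in PB, and 3.55 ± 4.04 against 1.04 ± 1.54 in SB (SD, n = 11 each). The groups overlapped in both systems, and the log2 differences were 1.58 ± 0.60 in PB (SE; edgeR p = 0.0087, adjusted p = 0.10) and 1.59 ± 0.78 in SB (SE; edgeR p = 0.042, adjusted p = 0.50). Neither passed the threshold after adjustment. Among joined names, with 47 insertions in 22 PB tumours and 0 in 5 PB tails, Crebbp was called (edgeR adjusted p = 0.038), and among separated names, with 11 in 8 tumours and 6 in 7 tails, it was not (log2 difference 0.59, edgeR adjusted p = 0.80).

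Ep300, on chr15:81586209-81652077, held 0 to 3 insertions in PB tumours and 0 to 2 in PB tails, with medians of 0. It was hit in 10 of 30 PB tumours, 2 of 12 PB tails, 3 of 11 SB tumours and 5 of 11 SB tails. The PB log2 difference was 0.63 ± 0.85 (SE; edgeR adjusted p = 0.76). Ep300 was the least often hit of the genes here besides Kmt2d in PB tumours.

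In SB mice, 4 members had enough insertions to be compared and none was called by edgeR, with 1 below an unadjusted p of 0.05, and none by DESeq2. Over all genes, 9 of 1124 (0.801%) were called, 7 of them (0.623%) higher in tumours. The median log2 difference between tumours and tails was 1.13 over the 8 members tested in PB and 0.81 over the 4 tested in SB, beside 0.21 and 0.01 over all genes tested. The SB median leaves out the members with fewer than 10 insertions. Of these, Setd2 had 1 insertion in tumours and 5 in tails, Kmt2a 2 and 3, and Ep300 4 and 5. Ezh2 had 2 and 0, and Kmt2d had none. Lists of other histone modifiers, described below, also had medians above those of all genes in both systems, so such a shift was not particular to the members. The medians were not tested.

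**Figure D2:**
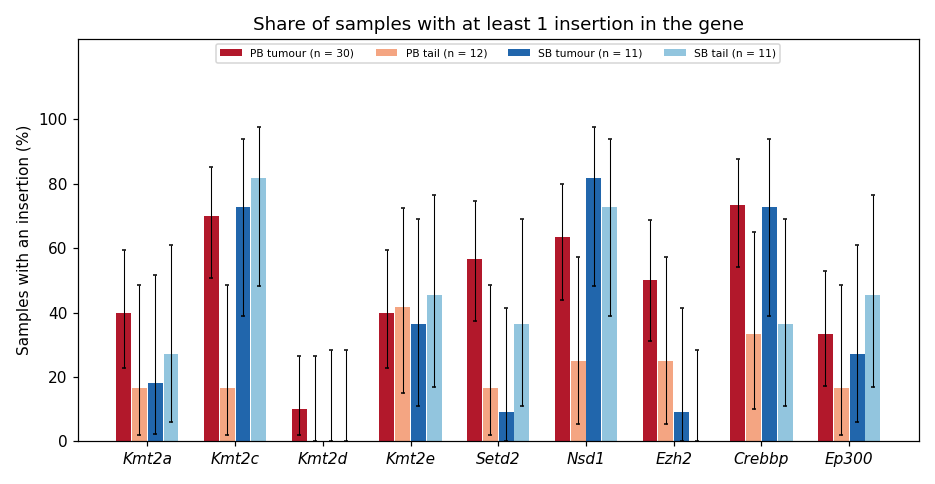
Share of samples with at least 1 insertion in each gene (y axis, %) in PB tumours (n = 30), PB tails (n = 12), SB tumours (n = 11) and SB tails (n = 11). Bars are shares and error bars are 95% Clopper-Pearson intervals. In PB, Kmt2c is at 70% of tumours and 16.7% of tails, whereas in SB it is at 72.7% of tumours and 81.8% of tails.

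A gene with many TTAA or TA sites receives many insertions by its length alone. The number of insertions in each gene was therefore compared with the number expected from its share of the motif sites of its chromosome, separately in each group. The expected number leaves out any preference of the transposases for genes or open chromatin. The paper reports such preferences, more pronounced in PB than in SB. When it modelled neutral insertion, fewer genes were called in PB and in SB. The part of such preferences in any excess over the expected number was not tested here. In PB tumours 6 of the 9 members were above the expected number after Bonferroni correction (one-sided Wald test), beside 1121 of 22558 genes (4.97%) and 14.3% of the 3410 genes with at least 400 TTAA sites, a size that 8 members have. Crebbp had 58 insertions where 11.2 were expected, 5.20 times as many (exact 95% Poisson interval 3.95 to 6.72). Ezh2 had 4.24 times the expected number (2.66 to 6.42), Kmt2e 3.62 times (2.34 to 5.34) and Kmt2c 3.08 times (2.37 to 3.95). Setd2 had 2.98 times (1.93 to 4.39) and Nsd1 2.87 times (1.92 to 4.12). Without PB tumour 3, which had the most insertions, Nsd1 was no longer called (adjusted Wald p = 0.053), and Setd2 was not called by the exact Poisson test (adjusted p = 0.062).

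Kmt2a had 3.05 times the expected number in PB tumours (1.74 to 4.95, adjusted Wald p = 0.094), Kmt2d 2.90 times (0.79 to 7.42) and Ep300 2.53 times (1.42 to 4.18), and none of these passed. All intervals cover counting error only. Crebbp ranked at 82 by p among all genes. With samples hit counted in place of insertions, so that a tumour counts once per gene, none of the 6 was called and 497 genes were. With insertions of at least 10 reads, 4 members were called, among them Ep300, and Kmt2e, Ezh2 and Setd2 were not.

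In PB tails no member was called, beside 282 of 22558 genes (1.25%), and 2 members had an unadjusted Wald p below 0.05. PB tails held 48124 insertions in all, against 156899 in PB tumours, so a call was harder to reach in tails. For Crebbp, 3.45 insertions were expected in PB tails and 11.2 in PB tumours. The numbers of members called in tumours and in tails are therefore not directly comparable. Kmt2e had 9 insertions in PB tails where 2.18 were expected, 4.12 times as many (1.89 to 7.83, adjusted Wald p = 0.24), a ratio like its ratio in tumours. Kmt2c had 3 where 6.45 were expected (ratio 0.47, 0.10 to 1.36). Kmt2e was called in PB tails without the tail with the most insertions (adjusted Wald p = 0.020).

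In SB tumours 3 members were called, beside 95 of 23859 genes (0.398%) and 1.64% of the 3545 genes with at least 4000 TA sites. Nsd1 had 15 insertions where 2.52 were expected, 5.96 times as many (3.33 to 9.83), Kmt2c 26 where 4.57 were expected, 5.69 times (3.72 to 8.34), and Crebbp 13 where 2.52 were expected, 5.15 times (2.74 to 8.81). Kmt2c was at rank 13 by p, Nsd1 at 24 and Crebbp at 46. Without SB tumour 11, which held 20 of the 69 insertions in the 9 genes, Crebbp was no longer called (adjusted Wald p = 0.076).

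In SB tails Nsd1 was called as well, with 11 insertions where 2.55 were expected, 4.32 times as many (2.16 to 7.73, adjusted Wald p = 0.014), beside 43 genes in all (0.180%). It was not called there by the exact Poisson test. Kmt2c had 2.45 times the expected number in SB tails (1.37 to 4.04). Crebbp had 1.38 times the expected number (0.45 to 3.23).

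**Figure D3:**
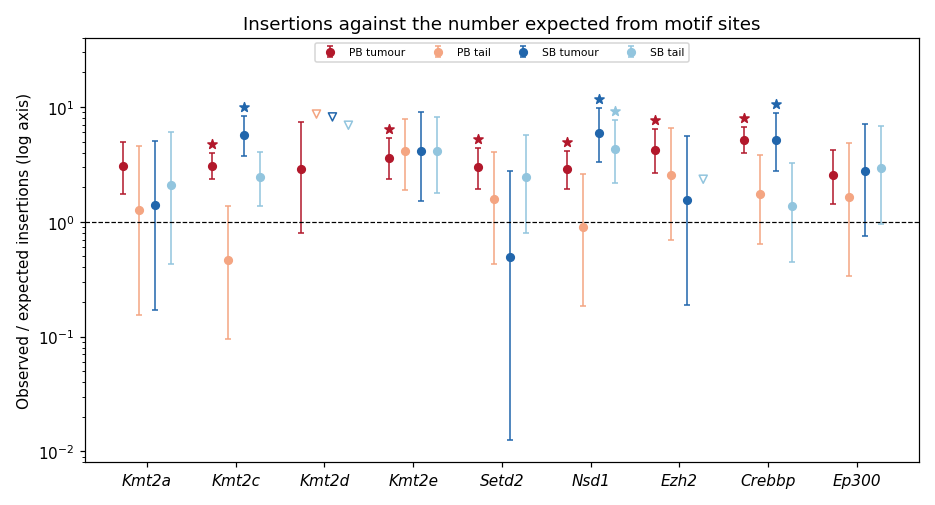
Observed over expected insertions in each gene (y axis, log scale) in the 4 groups, with exact 95% Poisson intervals as bars and a dashed line at 1. Stars mark genes called above expected, and open triangles give the upper limit for genes with no insertion. Crebbp is at 5.20 in PB tumours and 5.15 in SB tumours, and Kmt2e lies between 3.62 and 4.13 in all 4 groups.

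Most insertions lay in introns, 244 of 256 in PB tumours, all 34 in PB tails, 67 of 69 in SB tumours and 50 of 52 in SB tails. Coding exons held 7 in PB tumours and 2 in SB tails, and 3′ UTR exons held 5 in PB tumours and 2 in SB tumours, counted on the curated RefSeq transcript with the longest coding sequence. Kmt2c insertions of PB tumours fell in 18 introns, with 21 of 63 (33.3%) in intron 1, which has 24.2% of the gene's TTAA sites. Intron 43, 1 of the 58 introns of Kmt2c, held 5 insertions of 5 PB tumours and has 1.61% of these sites. Of these 5 insertions, 2 were at the same position. No intron was tested against its share of the sites. In Crebbp, 15 of 58 insertions were in intron 1 (25.9%, with 27.8% of the sites). Setd2 had 8 of 25 insertions in its intron 1 in as many PB tumours (32%, with 12.3% of the sites), and 3 of these 8 were at the site shown above. Of the Ezh2 insertions in PB tumours, 8 of 22 were in intron 1 and 8 in intron 3. The spread over each gene was wide, and the middle position of the PB tumour insertions was 86.962 kb from the start of the first exon in Kmt2c and 65.945 kb in Crebbp. In SB tumours, 3 of 13 Crebbp insertions (23.1%) lay on the 5′ side of the gene's midpoint, which holds 50.7% of its TA sites.

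**Figure D4:**
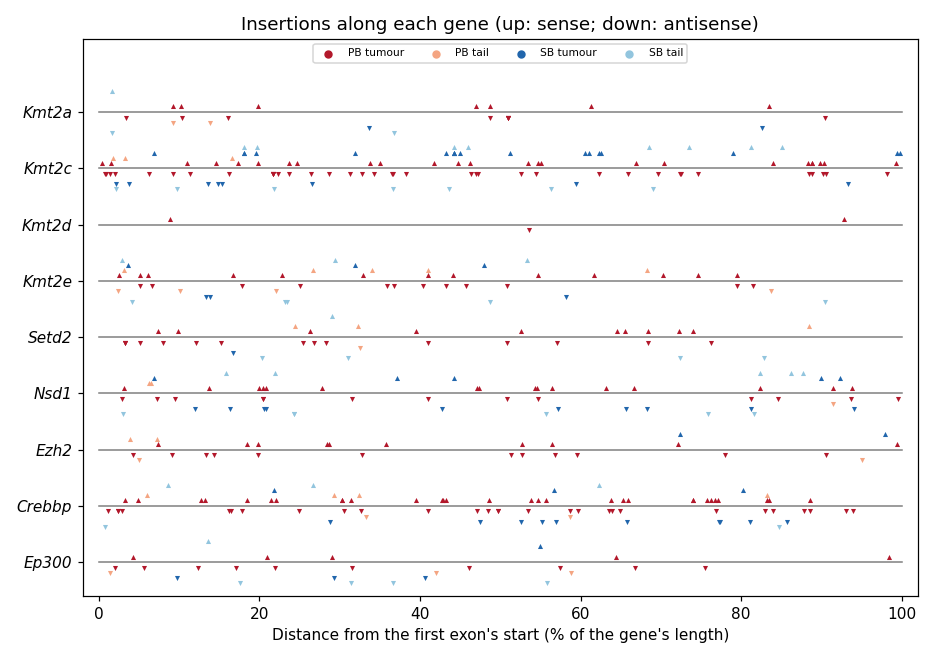
Position of every insertion along each gene (x axis, distance from the start of the first exon as a percentage of the gene's length), 1 line per gene, with sense insertions above and antisense insertions below the line, coloured by group. Insertions spread over the length of every gene with more than 20 of them, on both strands.

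The strand of an insertion sets which elements of the transposon face the gene. Sense here means that the deposited strand equals the gene's strand. The sources used here do not say which end of the transposon that strand follows, so sense and antisense may be exchanged throughout. Of the insertions in PB tumours 46.1% were sense to the gene, in PB tails 55.9%, in SB tumours 46.4% and in SB tails 42.3%. None of the 8 members with at least 10 insertions in PB tumours departed from equal use of both strands, and none had an unadjusted p below 0.05 (two-sided exact binomial test), beside 1 of 2517 genes called (0.0397%). Kmt2c had 25 sense and 38 antisense insertions (exact binomial p = 0.13) and Crebbp 30 and 28 (p = 0.90). In SB tumours Kmt2c had 18 sense and 8 antisense insertions and Crebbp had 3 and 10, values that were not tested. SB tumour 11 held 4 of the Crebbp insertions, all antisense. Of the sense Kmt2c insertions, 3 and 2 lay at the intron 6 and intron 1 sites shown above, also found in SB tail 5. Of the antisense ones, 1 lay at another position shared with that tail. No member was called with 1 vote per sample either.

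Reads show how common an insertion is in the tissue, within the limits of PCR. Member insertions of PB tumours had a median of 7 reads, beside 6 for all insertions in genes, and those of SB tumours 11, beside 13. The tails were at 22 and 23, beside 21 and 19. Among the 100 most covered insertions of a sample, 7 of the 256 PB tumour insertions were found (2.73%, beside 2.06% of all insertions in genes). In SB tails the number was 3 of 52 (5.77%, beside 2.37%), and it was 1 of 34 in PB tails and 1 of 69 in SB tumours.

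The highest was the Crebbp intron 19 site, the second most covered insertion of PB tumour 15, a throat lymph node, with 8485 reads or 5.93% of that sample's reads. That tumour held 8 insertions in Crebbp, and the others had between 2 and 50 reads. The Crebbp intron 8 site ranked at 11 in SB tumour 10, with 945 reads, and the Kmt2c intron 2 site at 26 in PB tumour 20, with 1470. Tails had such insertions too, since the Nsd1 intron 3 site ranked at 8 in SB tail 11 and the Kmt2c intron 1 site at 11 in SB tail 5. With the 100 most covered insertions of each sample, no member was called between tumours and tails (two-sided exact Fisher test, smallest p = 0.29 and all adjusted p = 1). Over all genes, 1 of 1792 was called in PB (0.0558%) and 0 of 903 in SB (0%). At most 2 samples of a group were hit in any member, so this test could show little. With the 1000 most covered, Kmt2c was hit in 9 of 30 PB tumours and 0 of 12 PB tails (exact Fisher p = 0.041, adjusted p = 1).

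Some positions recurred. Of 272 distinct PB positions in the 9 genes 16 were found in 2 or more samples and 2 in 3, and of 114 SB positions 4 were found in 2 or more. Over the whole genome 4.30% of PB positions and 0.57% of SB positions were shared. The Kmt2a exon 9 site and the Setd2 intron 1 site were each hit in 3 PB tumours, in the same orientation each time. The Nsd1 intron 3 site was found in 2 SB tails, with 557 reads in 1 and 2 reads in the other. The Kmt2c intron 6 site was found in SB tumours 4, 5 and 6 and in SB tail 5, all sense to the gene, with 18 to 39 reads. The Kmt2c intron 1 site was in SB tumours 5 and 6 and again in SB tail 5, with 139 reads in the tail and 17 and 3 in the tumours. A site in Kmt2c intron 1 at chr5:25493835-25493836 was also in SB tumour 5 and SB tail 5. The labels give these samples as different mice, and whether DNA passed between their libraries was not tested. Of the 26 Kmt2c insertions in SB tumours 6 were at these 3 positions. With only the positions of 1 sample kept, a choice made after seeing the data, Kmt2c was still called above expected in SB tumours, with 20 insertions and a log2 ratio of 2.17 (adjusted Wald p = 2.0e-07), while Nsd1 was no longer called in SB tails.

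Several members were often hit in the same tumour. In PB tumours 28 of 30 had insertions in 2 or more of the 9 genes and 15 in 5 or more, while 9 of 12 PB tails had 2 or more and none had 5. In SB mice all 11 tumours and all 11 tails had insertions in 2 or more, and 2 tumours and 3 tails in 5 or more. PB tumours had more insertions in all than PB tails (medians of 4283.5 and 3547.5), and the part of depth in these counts was not tested. Crebbp and Kmt2c were both hit in 17 PB tumours, only Crebbp in 5, only Kmt2c in 4 and neither in 4. Each alone was hit in most PB tumours, Crebbp in 22 and Kmt2c in 21 of 30. Whether they were hit together more often than these shares give was not tested. By tissue, Crebbp was hit in 5 of 5 PB lymph nodes labelled LN, 5 of 9 mesenteric masses, 4 of 6 mesenteric nodes and 4 of 6 spleens, and Kmt2c in 4, 7, 2 and 5 of these. These counts are descriptions of small groups and were not tested.

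The other histone modifiers were read from 6 lists. Genes above the expected number in PB tumours were 1 of 15 H3K4 methyltransferases and COMPASS subunits, 3 of 9 other Polycomb repressive complex 2 genes, 4 of 13 other lysine methyltransferases, 5 of 16 acetyltransferases and their subunits, 3 of 15 demethylases and 1 of 10 deacetylases and corepressors. The share of all genes called was 4.97%, and 14.3% among those with at least 400 TTAA sites. The lists' median ratios lay between 2.03 and 2.93, beside 0.76 over all genes and 1.15 over those with at least 400 sites. In PB tails none was called (1.25% of all genes), and in SB tumours only Ash1l (0.398% of all genes). By ratio in PB tumours, the genes of the lists with the smallest p were Ash1l (2.99), Jarid2 (5.30), Mtf2 (7.96), Rbbp4 (4.55), Prdm2 (4.85), Setd5 (4.59), Nsd2 (3.91), Ncoa3 (7.95), Ncoa2 (4.33), Epc1 (4.30), Jmjd1c (3.50), Kdm4c (2.96), Kdm1a (3.53) and Tbl1xr1 (7.14). Between tumours and tails, Ncoa3, a nuclear receptor coactivator, was the only gene of the lists that was called. Its log2 difference in PB was 2.27 ± 0.74 (SE; edgeR adjusted p = 0.048). In the order of the lists above, 3, 6, 7, 12, 8 and 5 genes were tested in PB. The lists' median log2 differences in PB were 0.871, 0.509, 0.489, 0.861, 1.196 and 0.787, beside 1.13 over the 8 members tested. Over all genes tested in PB, 72 of 3307 (2.18%) were called higher in tumours. Genes of the lists that were not called may still differ, such as Ep400 with 2.54 ± 1.11 (SE; edgeR adjusted p = 0.16). No gene of the lists was called in SB, where 2, 1, 1, 4, 3 and 2 were tested, beside 0.801% of all genes tested. The lists' medians in SB were 0.16, 1.09, 1.08, 0.41, 0.41 and 0.34, beside 0.81 over the 4 members tested. Whether the members' medians differed from those of the lists was not tested.

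The genes whose insertions per 10000 followed those of a member most closely over the 42 PB samples were Kcmf1 for Kmt2c (Pearson r = 0.57), Senp6 for Ezh2 (0.57), Dip2b for Setd2 (0.53), Vmp1 for Nsd1 (0.53), Ptpn2 for Crebbp (0.53) and Pias2 for Kmt2e (0.44). Each was the highest of between 975 and 994 genes on other chromosomes, and all share the samples and their depth.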

How the data were processed

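The deposited file lists insertion positions, strands and raw read counts of 385883 lines, made by the authors from QiSeq libraries (splinkerette PCR, paired-end MiSeq sequencing) on mm10. The aligner, the caller and the read filters are not given in the sources used here, and no line had fewer than 2 reads. The other column of per-sample values (1 column), a normalized coverage, was not used. The 9 members, the gene lists and the tests were chosen with earlier results of these data known, and samples were grouped by tissue and genotype label.

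Each position was set to the closest target motif of its transposase, at most 5 bp away, and entered once for a sample. The donor chromosome 14, taken as the autosome densest in insertions, and the sex chromosomes were left out. Older symbols were updated through the RefSeq synonyms of GRCm38.p6 if the position lay within 10 kb of the gene. Other genes of the lists were named by list, at most 3 by smallest p.

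Tumours and tails were compared with edgeR 4.0.16 (R 4.3.3; quasi-likelihood, total insertions as library size, at least 10 insertions, Benjamini-Hochberg), with DESeq2 1.42.0 as an alternative. Observed and expected insertions were compared with a one-sided Wald test (Bonferroni, at least 3 samples and 5% of samples hit). Fisher and binomial tests used scipy 1.17.1, and correlations 100000 permutations. On simulated data with 200 genes raised 5-fold in each system, the Wald test found 104 of them in PB tumours and 49 in SB tumours. Among those with at least 5 expected insertions, it found all 47 in PB and all 6 in SB. It made 5 false calls among 22558 PB genes and 5 among 23859 SB genes. The exact Poisson test made none, and found 74 and 19 of the raised genes. These counts hold for the simulated data only. In the real PB tails the Wald test called 282 of 22558 genes. Insertions were pooled over the mice of a group in the Wald, Poisson and binomial tests, so their p-values and intervals cover counting error only. The alternatives covered the test, the correction, the read and count minimum, the gene region, the scaling, the name form and leaving out the largest samples. The edgeR and DESeq2 p-values measure the spread between mice.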

Additional observations from a re-analysis of the deposited data

How the results depend on the processing

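Kmt2c in PB tumours against tails was called in all the alternatives run but 3. No member was called if genes with at least 1 insertion were tested (0), with the Fisher test of samples hit (0) or among separated names (0), and 2 were among joined names. No SB alternative called a member, nor did any for the interaction, the strand or the most covered insertions. Above expected, samples hit in place of insertions gave 0 members in PB tumours, 0 in SB tumours and 0 in SB tails, where a sample counts once by construction. In SB tails the exact Poisson test gave 0, insertions of at least 10 reads 0, only the positions of 1 sample 0 and Benjamini-Hochberg 3. In PB tails Benjamini-Hochberg, 10 kb upstream and the loss of the tail with the most insertions each gave 1. Leaving out PB tumour 7, chosen after seeing the data, gave 6 members above expected and 1 against tails. Over all genes, calls above expected in PB tumours (1121) were 646 with the exact Poisson test, 2852 with Benjamini-Hochberg, 497 by samples hit and 480 with at least 10 reads. The first 3 gave 83, 879 and 95 in PB tails (282), 33, 307 and 16 in SB tumours (95) and 13, 167 and 9 in SB tails (43). Against tails, PB calls (149) were 71 with at least 1 insertion, 89 with DESeq2, 34 among joined names, 28 among separated names and 7 by the Fisher test, and SB calls (9) were 2 with DESeq2, 27 with donor and sex chromosomes kept and 1 by the Fisher test. The cause of the other changes was not tested.

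The signs of small differences turned for values that were not called. As log2 ratios in PB tails, samples hit gave 0.076 for Nsd1 and -0.16 for Setd2. At least 10 reads gave 0.31 for Nsd1, -0.14 for Ezh2 and -0.17 for Kmt2a. Without the tail with the most insertions the values were 0.072 for Nsd1, -0.63 for Ep300 and -0.42 for Kmt2a. With only the positions of 1 sample, chosen after seeing the data, Kmt2a was -0.52. Ezh2 in SB tumours was -0.26 by samples hit, and Kmt2a in SB tails -0.041 with at least 10 reads. As log2 differences between PB tumours and tails, Kmt2e was 0.057 with DESeq2, 0.033 with TMM and 0.78 among joined names, and Ep300 -0.050 among joined names. In SB, Kmt2e was 0.20 with the name form as a block, 0.22 among joined names and 0.18 with donor and sex chromosomes kept. The interaction was 0.56 (DESeq2), 0.40 (TMM) and 0.27 (without the sample of each group with the most reads) for Crebbp, and 0.54 (DESeq2) and 0.41 (TMM) for Kmt2e. The sense share of Crebbp was -5 percentage points from 50% with 1 vote per sample. No paired analysis was possible because replicate numbers are names in accession order and all samples come from different mice. Genes with few motif sites, such as Kmt2d, had too few insertions at this depth to show a difference.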
